A study of Mus musculus with 2 samples.

Results

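The genes described here set the pace of the G1 phase of the cell cycle: the D-type cyclins Ccnd1, Ccnd2 and Ccnd3, the E-type cyclins Ccne1 and Ccne2, the cyclin-dependent kinases (CDKs) Cdk2 and Cdk4, the CDK inhibitor Cdkn1b (p27), the retinoblastoma gene Rb1 and the transcription factor gene E2f1. They were given as a list of 10 genes and matched by symbol to the platform annotation, which gave 1 probe each for 9 of them out of 16444 named genes in all. No probe carries the symbol Ccnd1 in that annotation, so Ccnd1 was not analysed here. For genes outside the list that have several probes, the one with the highest mean spot intensity of both arrays was used.

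D-type cyclins bind Cdk4 and its relative Cdk6 in response to growth signals, and the complexes begin to phosphorylate the retinoblastoma protein, which otherwise holds E2F factors inactive. Released E2F factors switch on genes of DNA synthesis and also Ccne1, Ccne2 and E2f1 themselves, and cyclin E with Cdk2 then drives entry into S phase, while p27 holds cyclin E and Cdk2 in check. Embryonic stem cells are known for a short G1 phase with high cyclin E and Cdk2 activity and low levels of CDK inhibitors, a state that is left as they differentiate.

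The RNA came from Flk-1-positive cells sorted by flow cytometry out of mouse embryonic stem cell cultures on OP9, a stromal line that favours blood formation, after a coculture of 4 days per the protocol and at day 4.5 per the sample descriptions. In the gene-trapped group both alleles of AU019823 were disrupted by a gene trap, and in the revertant group the genotype is given as close to wild type. Each group is 1 sample on 1 one-colour array, from 300000 sorted gene-trapped cells and 350000 sorted revertant cells. The samples carry different codes of unstated meaning, and if these stand for clones, the effect of the clone and that of the genotype cannot be told apart. The parental stem cell line is not given in the sources used here. With 1 array a group there is no replicate check and no p-value, and every difference compares these libraries only.

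Pairs of intensities are given below with the revertant array first and the gene-trapped array second. The mean blank spot gave 22.5 and 20.1 intensity units, and the median probe 47.5 and 38.6. AU019823 itself had spot intensities of 486 and 297, a normalized log2 difference of -0.39, but where its probe lies relative to the trap is unknown, so this value does not check the labels. All 10 listed early mesoderm genes were above background on both arrays, with 5 above and 5 below 0, a summed intensity of 4203 and 5027 and a median log2 difference of 0.23. Kdr (the gene of Flk-1) gave 1025 and 537, a normalized log2 difference of -0.65 that ran from -2.04 to -0.58 over the settings. Pdgfra gave 175 and 134, a normalized log2 difference of -0.02. Mixl1, Etv2 and T had log2 differences of 1.99, 1.30 and 0.76. The summed intensity of 12 stromal and fibroblast genes was 5643 and 1949.5, that of 8 endothelial genes 1866 and 580.04, and that of 6 hematopoietic genes 474 and 189.8. The widest log2 differences were -1.61 (Col5a1), -1.49 (Col1a1) and -1.30 (Acta2) among stromal genes, -1.53 (Flt1), -1.31 (Tek) and -1.27 (Pecam1) among endothelial genes and -1.08 (Epor), -0.77 (Gata1) and -0.72 (Itga2b) among hematopoietic genes. Of the stromal genes 11 of 12 were above background on both arrays, of the endothelial genes 7 of 8 and of the hematopoietic genes 5 of 6. Dcn and Ptprc lay below background on both, and Cdh5 was above it in revertant cells only, where it was at least 1.07-fold higher. Acta2 alone gave 3603 and 1195 of the stromal sum. After normalization 4 of these 11 stromal genes, 1 of these 7 endothelial genes and 0 of these 5 hematopoietic genes lay above 0. The list medians were -0.31, -0.29 and -0.72. The summed intensity of 6 stem cell genes was 1977 and 3222, and 1270.4 and 973 without Tdgf1 (1.88). Dppa5 had 1.21, which turned to -0.08 with the local background subtracted, and Klf4 had -0.36. The summed intensity of 6 neuroectoderm genes was 459 and 624, and 318 and 314 without Otx2 (1.29). Zic2 had 0.58 and Fabp7 0.47, and Pax6 lay below background on both arrays. The summed intensity of 7 reference genes was 78421 and 59238, and the widest were Sdha at -0.17, Actb at 0.13 and Hprt1 at -0.10. All these sums are of deposited intensities, which were lower on the gene-trapped array for 87.3% of named genes above background. After normalization 5 of 6 stem cell genes lay above 0, with a median of 0.10. Some of these 5 had intensities near the background limits and differences near 0. Of the 5 neuroectoderm genes above background on both arrays 4 lay above 0, with a median of 0.47. In these bulk samples fewer cells of a type and less RNA per cell cannot be told apart, and the part these cell types have in the differences below was not tested.

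The sequences that lie just before the start sites of Ccne1, Cdkn1b, Cdk2 and Cdk4 are shown because Ccne1 and Cdkn1b lay farthest apart among the 9 genes measured and encode an activator and an inhibitor of the kinase that Cdk2 encodes, while Cdk4 was the brightest probe. Each is the 250 bases upstream of the start site, 5′ to 3′ in the direction of the gene, from RefSeq on GRCm38.p6: Ccne1 at chr7:38107491-38107740 (minus strand), Cdkn1b at chr6:134920151-134920400 (plus strand), Cdk2 at chr10:128705052-128705301 (minus strand) and Cdk4 at chr10:127063285-127063534 (plus strand). Capitals mark exact matches on either strand to the E2F words TTTCCCGC, TTTCGCGC, TTTGCCGC and TTTGGCGC, the GC box GGGCGG and the E box CACGTG.
Ccne1: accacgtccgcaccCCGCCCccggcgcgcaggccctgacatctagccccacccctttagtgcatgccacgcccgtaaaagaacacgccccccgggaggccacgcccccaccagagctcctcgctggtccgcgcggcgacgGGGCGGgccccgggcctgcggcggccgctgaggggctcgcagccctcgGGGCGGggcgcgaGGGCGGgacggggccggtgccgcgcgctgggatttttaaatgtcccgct
Cdkn1b: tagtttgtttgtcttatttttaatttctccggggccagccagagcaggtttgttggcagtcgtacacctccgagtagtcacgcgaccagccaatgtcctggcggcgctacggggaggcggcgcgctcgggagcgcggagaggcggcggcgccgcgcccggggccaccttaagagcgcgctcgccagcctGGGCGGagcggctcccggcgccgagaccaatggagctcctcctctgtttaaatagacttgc
Cdk2: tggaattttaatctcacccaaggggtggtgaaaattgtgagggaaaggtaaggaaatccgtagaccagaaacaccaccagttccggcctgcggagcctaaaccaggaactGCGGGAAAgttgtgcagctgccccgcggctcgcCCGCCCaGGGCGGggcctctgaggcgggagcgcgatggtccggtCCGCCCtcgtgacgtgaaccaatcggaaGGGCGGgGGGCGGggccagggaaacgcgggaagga
Cdk4: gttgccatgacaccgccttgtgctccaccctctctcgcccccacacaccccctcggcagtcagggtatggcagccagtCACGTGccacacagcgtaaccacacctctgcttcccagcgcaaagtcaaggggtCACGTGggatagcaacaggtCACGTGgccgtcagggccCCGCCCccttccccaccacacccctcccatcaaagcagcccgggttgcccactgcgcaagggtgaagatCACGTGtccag

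The E box is a binding word of Myc and related factors, and the Cdk4 window held 4 copies, at 172, 118, 98 and 11 bases before the start, against at least 1 copy in 6.02% of all 32851 RefSeq windows of that length. The Cdk2 window held 1 E2F word, 140 bases before the start, where 1.86% of all windows held any of the 4 words. The windows of Ccne1, Cdkn1b, Cdk4 and Ccnd3 held no E2F word. The GC box, present in 32.7% of all windows, stood in all 5 windows of these genes that begin at the outer end of the gene (Ccnd3, Ccne1, Cdk2, Cdk4 and Cdkn1b), with 4 copies before Ccne1 and 1 before Cdkn1b. Bases G and C made up 59.6% (Ccnd3) to 76% (Ccne1) of these 5 windows, beside a median of 52.4% over all windows. None of the shares of all windows given here is matched for base composition. The Cdkn1b window also held 2 copies of CCAAT, a word found in 33.9% of windows. The window for E2f1 begins 466 bases inside the gene, and a further window of Ccnd3 begins 88416 bases inside that gene. Both were left out. The sources used here held no window for Ccnd2, Ccne2 and Rb1. These matches describe the letters of the windows only.

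All 9 genes were above background on both arrays, the dimmest value being E2f1 in gene-trapped cells at 3.39 times the background limit, which is the mean blank signal plus 2 SD. The E-type cyclins had higher signals in gene-trapped cells, by 1.87-fold for Ccne1 and 1.77-fold for Ccne2, and Cdkn1b had a lower one, by 1.57-fold. The other 6 genes lay within 0.30 of 0 on the log2 scale. None of the 9 reached 2-fold in either direction in the main setting, where the 13753 named genes detected on each array included 0.334% that were 2-fold or more higher and 1.08% that were 2-fold or more lower. The median of the 9 log2 differences was 0.05, beside 0.01 over all these genes.

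Spot intensities as deposited were lower on the gene-trapped array for 7 of the 9 genes and for 87.3% of all named genes above background, and 2 kinds of positive control spots had mean log2 ratios of -0.36 and -0.33. Differences are therefore given after quantile normalization, which puts both arrays on 1 distribution, as gene-trapped minus revertant on the log2 scale. The SD of the log2 ratio among the 24 spots of each positive control was 0.108 and 0.0989, a spread between spots of 1 hybridisation that says nothing about cultures.

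**Figure D1:**
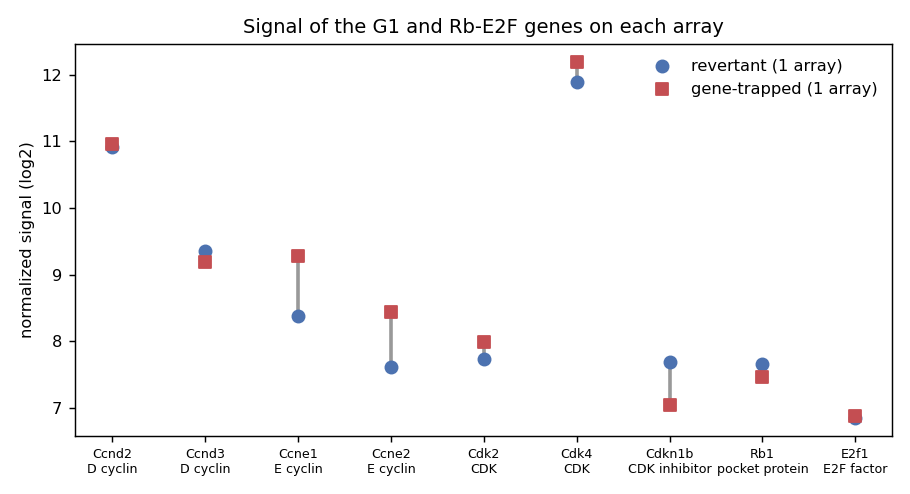
Normalized log2 signal (vertical axis) of the 9 measured genes for the revertant sample (blue circles) and the gene-trapped sample (red squares), 1 array each, with a grey line joining both values of a gene. The lines are longest for Ccne1 (8.38 to 9.28), Ccne2 (7.61 to 8.43) and Cdkn1b (7.69 to 7.04); heights of different genes come from different probes and are not comparable.

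Among the E-type cyclins, the activating partners of Cdk2, Ccne1 gave a spot intensity of 336 in revertant cells and 542 in the gene-trapped ones. Its log2 signal was 8.38 and 9.28, a difference of 0.90, which placed it 69th from the top of 13753 genes. It was thus one of the 2 genes of the list whose deposited intensity was higher on the gene-trapped array, against the general shift to lower values. Of the 1354 genes within 0.5 of its mean log2 signal, 1.03% had a difference at least as high, and the SD of their differences was 0.43. Ccne2 gave 185 and 283, a log2 signal of 7.61 and 8.43 and a difference of 0.82, 98th from the top. Of the 1956 genes of like brightness, 1.33% reached that value. The differences of Ccne1 and Ccne2 were 0.08 apart, which is less than the SD of either kind of positive control spot. In the authors' deposited table the values of Ccne1 were 206 and 446 and those of Ccne2 107 and 224, ratios of 2.16-fold and 2.09-fold. Both therefore passed 2-fold there, as 2.01% of all 14203 genes with values in both columns did upwards.

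The D-type cyclins, which couple growth signals to Cdk4, had small differences of opposite sign. Ccnd2 gave 2054 and 1813, with a log2 difference of 0.05. That is within the SD of the positive control spots, and the sign turned to -0.04 under median scaling. Ccnd3 gave 673 and 500, a log2 difference of -0.16, and 29.6% of genes of like brightness lay at or below it. With the scanner's local background subtracted Ccnd3 had 0.04. Neither D-type cyclin can be placed as higher or lower from these arrays. The difference of Ccne1 exceeded that of Ccnd2 by 0.85 in the main setting and by 0.62 to 0.93 over the settings tried.

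Cdk2, the partner of cyclin E, gave 207 and 197, which after normalization was a log2 difference of 0.25. The deposited intensity was thus slightly lower and the normalized signal higher, and 21.6% of genes of like brightness had a difference at least as high. Cdk4, the partner of the D-type cyclins and the brightest of the 9 probes, gave 4221 and 4177, a log2 difference of 0.30. Few genes are as bright, and 26.8% of the 142 such genes reached that difference. Both kinases kept a positive sign in each setting, Cdk2 from 0.09 to 0.32 and Cdk4 from 0.10 to 0.36. These values lie inside the spread of genes of like brightness, whose SDs were 0.41 for Cdk2 and 0.49 for Cdk4.

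**Figure D2:**
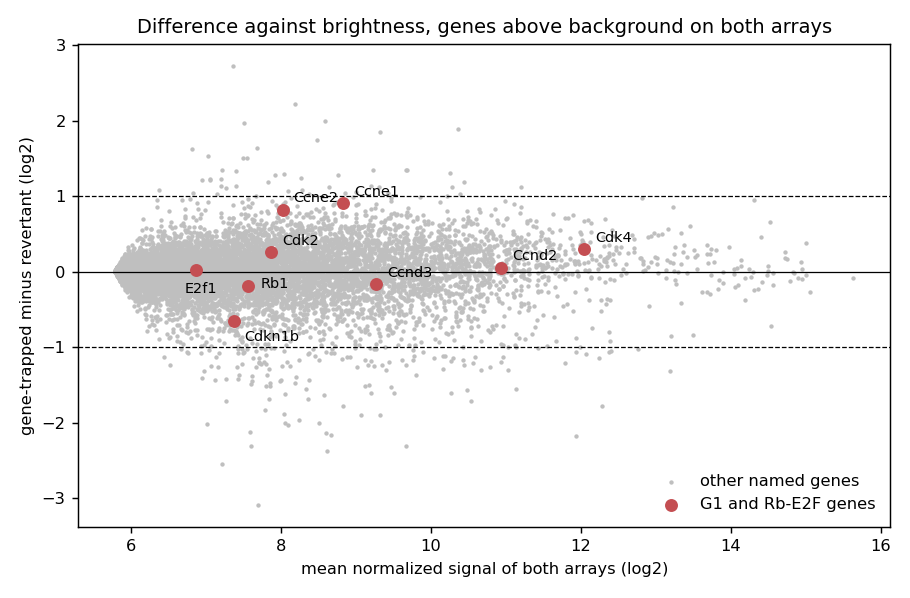
Log2 difference, gene-trapped minus revertant (vertical axis), against the mean normalized log2 signal of both arrays (horizontal axis) for named genes above background on both arrays (grey) and the 9 genes described here (red, named); dashed lines mark 2-fold. Ccne1 at 0.90 and Ccne2 at 0.82 lie near the upper edge of the cloud below the 2-fold line, Cdkn1b at -0.65 lies toward the lower edge, and the other 6 lie within it.

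Cdkn1b, whose protein p27 binds and blocks cyclin E with Cdk2, gave a spot intensity of 199 in revertant cells and 88.1 in the gene-trapped ones. Its log2 signal was 7.69 and 7.04, a difference of -0.65, with 4.77% of the 2514 genes of like brightness at or below it. In the authors' deposited table the values were 116 and 58.0, a ratio of 2.001-fold lower, just past the 2-fold limit that 4.02% of genes passed downwards there. The gap between Ccne1 and Cdkn1b, taken as the difference of their differences, was 1.55, and it ran from 1.54 to 2.11 over the settings. For Ccne2 the gap to Cdkn1b was 1.47, with a range of 1.33 to 2.06. The E-type cyclin signals and the Cdkn1b signal therefore lay apart in the same directions in every setting. The stromal, endothelial and hematopoietic marker sums of deposited intensities given above were lower in gene-trapped cells. Deposited intensities were also lower there for 87.3% of all named genes above background. After normalization 4 of 11 stromal, 1 of 7 endothelial and 0 of 5 hematopoietic genes lay above 0. The part of these cell types in the Cdkn1b difference was not tested.

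The other CDK inhibitor genes went different ways. Of 6 listed, 4 had a probe, all above background, and 1 was at least 2-fold higher and 0 lower, beside 0.334% and 1.08% of all genes, with a median of 0.02. Cdkn1a (p21), a Cip/Kip inhibitor like p27 and a textbook target of p53, gave 89.7 and 252, a log2 difference of 1.50 (2.83-fold). With the local background subtracted that difference was 0.59, under 2-fold. Cdkn1c (p57), the third Cip/Kip gene and an imprinted one, gave 1706 and 802, a difference of -0.82. Of the 3 Cip/Kip genes 1 was thus higher and 2 were lower in gene-trapped cells, with signs kept in every setting. Of the INK4 inhibitors of Cdk4 and Cdk6, Cdkn2c gave 115 and 92.0 (log2 difference 0.04). Cdkn2a gave 31.1 and 26.3, close to the background limits, with a difference of -0.01.

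**Figure D3:**
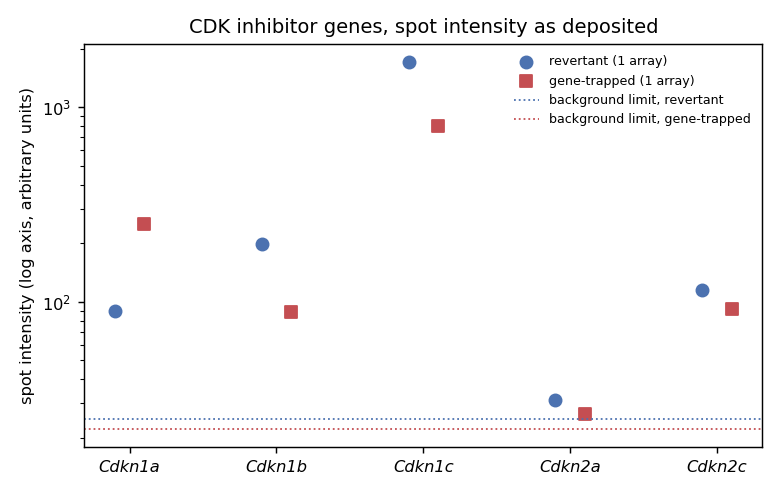
Spot intensity as deposited, without normalization (vertical log axis), of 5 CDK inhibitor genes for the revertant sample (blue circles) and the gene-trapped sample (red squares), 1 array each; dotted lines mark the background limit of each array. Cdkn1a is higher on the gene-trapped array (252 against 89.7), Cdkn1b (88.1 against 199) and Cdkn1c (802 against 1706) are lower, and Cdkn2a lies near the limits.

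Rb1, whose protein restrains E2F factors until it is phosphorylated, gave 192 and 128, a log2 difference of -0.20. It was negative in every setting, from -0.34 to -0.18, but 23.5% of genes of like brightness lay at or below it. E2f1, an activating E2F factor, gave 94.5 and 75.4 and a difference of 0.03, with values from -0.08 to 0.06 over the settings. The difference of E2f1 was thus near 0 where those of Ccne1 and Ccne2 were not, and that of Ccne2 exceeded it by 0.79, with a range of 0.65 to 1.07. The local background around the E2f1 spot was 81.2 and 63.3, which is 85.9% and 83.9% of its intensity and the highest share among the 9 genes. E2f1 was also the dimmest of the 9, and the offset used in processing shrinks the folds of dim genes. With the smaller offset of 16 E2f1 had 0.04, and without background correction it had 0.04 too.

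The remaining genes of the Rb-E2F axis were mostly near 0. Of 15 measured pocket protein, E2F, DP and associated genes none reached 2-fold in the main setting and 1 (E2f6) did with the local background subtracted, where 2.04% of all genes were that much higher; 7 lay above 0 and the median was -0.01. E2f5, a repressive E2F, gave 656 and 375 (log2 difference -0.50), while the repressor E2f6 gave 839 and 1004 (0.47) and Tfdp1, the DP partner that E2F factors need to bind DNA, gave 615 and 713 (0.44). The repressor E2f4 had -0.15 and E2f7 0.13, the latter close to background at 29.5 and 30.0. Among 7 further cyclin and kinase genes above background on both arrays, Ccna2, the S phase cyclin, was highest at 0.39 (1973 and 2162) and Mnat1, a subunit of the CDK-activating kinase, lowest at -0.19. Ccnh, another subunit of it, had 0.20, Cdc2a (Cdk1) -0.12 and Cdk3 0.10, and the list's median was 0.06. Ccna1 was above background on the gene-trapped array only, at least 1.06-fold higher there, with intensities of 23.5 and 24.7.

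Genes that act on G1 kinases leaned higher in gene-trapped cells without reaching 2-fold. Of 16 measured, 13 lay above 0 (81.2%, beside 53.3% of all genes), and the median was 0.15. Under median scaling the list median was 0.06, beside 0.01 over all genes. Under 75th percentile scaling it was 0.19, beside 0.15 over all genes, and 73.0% of all genes lay above 0 there. Skp2, the ubiquitin ligase subunit that marks p27 protein for destruction, had the highest value, 644 and 937, a log2 difference of 0.76. Its cofactor Cks1b had 0.39, though the mean of its 2 probes was 0.25, and the ligase core gene Skp1a had 0.38. Cdc25a, a phosphatase that activates Cdk2, gave 441 and 530 (0.50), and Myc, a regulator of growth whose family recognises the E box printed above, gave 289 and 307 (0.38).

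Known E2F target genes of DNA replication and nucleotide supply also leaned higher. Of 30 measured, 25 lay above 0 (83.3%, beside 53.3% of all genes), and the median was 0.34, beside 0.01 over all genes. These shares and medians are not matched for brightness. None reached 2-fold in the main setting, 1 (beside 2.01% of all genes) in the authors' table and 3 (beside 2.04%) with the local background subtracted. The list median ran from 0.23 under median scaling to 0.47 in the authors' deposited table, beside 0.01 and 0.02 over all genes. Under 75th percentile scaling it was 0.37, beside 0.15 over all genes. Rrm2, a subunit of ribonucleotide reductase, gave 843 and 1382, a log2 difference of 0.93. Ung, a uracil glycosylase, had 0.72, the thymidylate synthase gene Tyms 0.69, the chromatin assembly gene Chaf1b 0.62 and the replication initiation gene Mcm10 0.58. With the local background subtracted Tyms had 0.11 and Mcm10 0.13, while the 3 genes past 2-fold there rose, the highest to 1.56. Ccne1 and Ccne2, which are E2F targets as well, thus lay at 0.90 and 0.82 in the upper part of the range of this list, which extends from -0.15 to 0.93.

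The p53 pathway, which acts on G1 through Cdkn1a, had 4 of 8 measured genes at least 2-fold higher and 0 lower, beside 0.334% and 1.08% of all genes, with a median of 0.89. The p53 targets Ccng1 (341 and 1088) and Phlda3 (183 and 569) had log2 differences of 1.85 and 1.74, Wig1 had 1.22 and Trp53inp1 1.19. Mdm2, which encodes the ubiquitin ligase of p53, had 0.59. With the local background subtracted 2 of the 8 were at least 2-fold higher, beside 2.04% of all genes. Cdkn1a and the E-type cyclins, an inhibitor gene and activator genes of the same kinase, were therefore higher in the same sample.

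**Figure D4:**
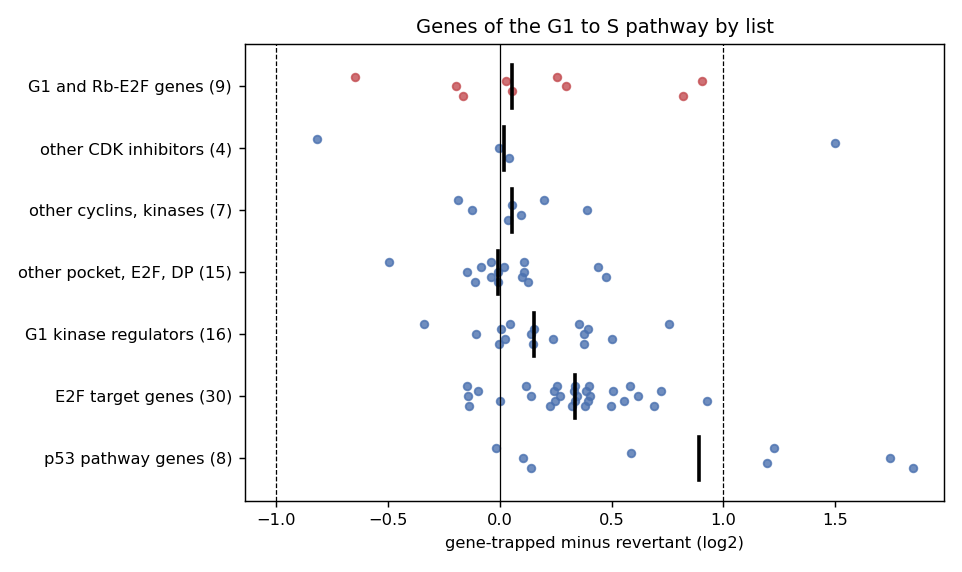
Log2 difference, gene-trapped minus revertant (horizontal axis), of each gene above background on both arrays, by list; black bars are list medians, dashed lines mark 2-fold and the number of genes stands in parentheses. The E2F target genes have a median of 0.34 and the p53 pathway genes 0.89, whereas the genes described here spread on both sides of 0 around 0.05.

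The 9 genes were also set against the spread of all genes in each setting. In the main setting the central 95% of all differences ran from -0.70 to 0.57, and Ccne1 and Ccne2 lay above it, whereas Cdkn1b lay inside. The same 2 genes lay above the range in the authors' deposited table, where it ran from -1.22 to 0.93. With no filter on dim genes the range narrowed to -0.64 to 0.53, and Cdkn1b lay below it. With the local background subtracted the range widened to 0.91 at its upper end, and Ccne1 at 0.90 and Ccne2 at 0.68 lay inside it.

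**Figure D5:**
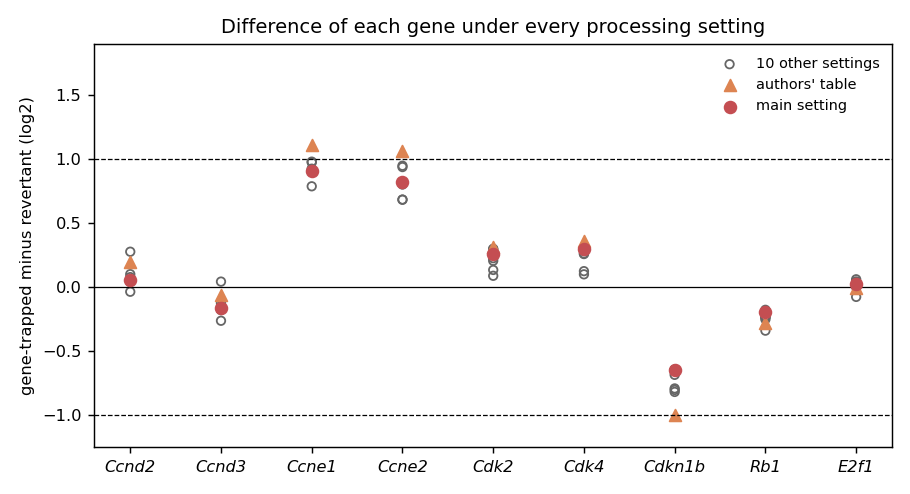
Log2 difference, gene-trapped minus revertant (vertical axis), of the 9 genes in the main setting (red), in the authors' table (orange triangles) and in 10 other settings (open circles); dashed lines mark 2-fold. Ccne1 and Ccne2 stay above 0.68 and Cdkn1b below -0.64 throughout, and these 3 pass 2-fold in the authors' table only, while Ccnd2, Ccnd3 and E2f1 have values on both sides of 0. The circles of the mean of probes, the stricter filter and no filter equal the main value of each gene by design.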

How the data were processed

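Spot intensities of 2 one-colour TORAY arrays were used. The authors deposited them as linear medians over each spot at 635 nm without background subtraction, read at 3 scanner gains joined by least squares, per the file headers. A second deposited table holds intensity values that the authors processed, with the same median in both columns; the sources used here do not give its steps. From the spot intensities, normexp correction (offset 50) and quantile normalization were run with limma 3.58.1 in R 4.3.3, then log2 was taken; tables were made with Python 3.11.15, pandas 2.3.3 and numpy 2.4.6. The script was tested on simulated data. Control spots and 2 probe spots with a quality flag were left out. The offset shrinks the folds of dim genes.

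A probe counted as above background past the mean blank signal plus 2 SD, as 83.9% (revertant) and 82.6% (gene-trapped) of probes did. The platform annotation names 16629 probes and leaves 6842 without a symbol; genes of the other lists were also matched through RefSeq synonyms, and the annotation's spelling is kept, which can be old. Genes named beside the 9 are, per list, the 5 with the largest absolute difference (3 for marker lists), those past 2-fold and those above background on 1 array, beside Kdr, Pdgfra and AU019823; Dcn, Ptprc and Pax6 were named outside this rule, after their values were seen, as below background on both arrays. No genes of a like pattern are named, since 2 arrays give 1 difference per gene. The members and lists were chosen with earlier results of these data known. There was no test: the number of arrays limits the precision, and 2-fold is a fixed size. Alternatives were median, 75th percentile and cyclic loess scaling, offset 16, no background correction, the authors' table, the mean of a gene's probes, a stricter filter (5 SD) and none, and, added after the data were seen, subtraction of the local background and of the median difference of each of 24 spot blocks.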

Additional observations from a re-analysis of the deposited data

Results flagged for a closer look

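The local background that the scanner recorded beside each spot is not part of the main comparison, but it held signal around the spots of the 9 genes. Its median over these spots was 126 (revertant) and 137 (gene-trapped), whereas beside blank spots the medians were 14.2 and 15.6. Around single spots it came to between 20.7% and 85.9% of the spot's own intensity in the revertant sample and between 10.4% and 83.9% in the gene-trapped sample. Around the Ccne1 spot it was nearly equal on both arrays (207 and 213), and around the Cdkn1b spot it was 81.8 and 37.4.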

How the results depend on the processing

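No paired analysis was possible because there is 1 array per group. Of 99 values of the 9 genes under the 11 alternatives, 80 moved by less than 0.108, the larger SD of the positive control spots, and 19 moved by more. The 80 include all values under the mean of probes, the stricter filter and no filter. Those values could not move, since each of the 9 genes has 1 probe and passes both filters. In the authors' table, Ccne1 and Ccne2 were at least 2-fold higher (2 of 9 genes) and Cdkn1b lower (1 of 9), against 0 and 0 in the main setting, and their median was 0.20; the cause was not tested. Under median scaling the median of the 9 was -0.04 and under 75th percentile scaling 0.10, where the median of all genes was 0.01 and 0.15. The signs of Ccnd2, Ccnd3 and E2f1 turned in at least 1 setting, and those of the other 6 in none. Counts over all genes at least 2-fold higher and lower were 46 and 148 in the main setting, 87 and 238 with offset 16, 84 and 227 without background correction, 280 and 185 with the local background subtracted and 285 and 571 in the authors' table. Signal over background limits the dimmest genes named, such as Ccna1, Cdk3, E2f7 and Cdkn2a, whose intensities lie near the limits.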
